A study of Bos taurus with 8 samples.

Results

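The genes described here belong to excitation-contraction coupling, the chain by which an action potential in a muscle fibre releases calcium and starts contraction. The list named 10 genes: RRAD, RYR1, CASQ1, CASQ2, SLN, PLN, TRDN, CACNA1S, CACNG1 and JPH1. A gene was taken up where an array probe carried a RefSeq transcript of it, and its brightest probe was used if it stood well above background in at least 4 of 16 channel readings. Of the 10 listed genes, 2 had such a probe, RRAD and JPH1, out of 6693 named genes with a kept probe. The other 8 were matched to no probe through the RefSeq table used and were not analysed here. RRAD was listed because it differs between these breeds, so its values are given as a description, with no test.

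In skeletal muscle the L-type calcium channel of the T-tubule, a tube of surface membrane that runs into the fibre, senses voltage and opens the ryanodine receptor of the sarcoplasmic reticulum, the fibre's calcium store. Released calcium binds troponin C on the thin filament, and SERCA pumps return it to the store. RRAD is a small GTPase of the RGK family that binds the beta subunits of voltage-gated calcium channels and lowers their current. JPH1, junctophilin 1, tethers the T-tubule to the sarcoplasmic reticulum so that channel and release site face each other.

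Total RNA of 1 leg muscle, m. semitendinosus, came from 12 bulls of 15 months, 4 each of Hereford, Holstein-Friesian and Limousin cattle, and was read on 8 bovine 2-colour arrays. The design text sets Hereford and Holstein-Friesian, as well-marbled beef, against Limousin, as lean beef, and names no allele or treatment. Every array held 1 bull of a marbled breed and 1 Limousin bull, and the same 4 Limousin bulls were used on both slides. On the Hereford slide the Hereford bulls carried Cy5 and the Limousin bulls Cy3, and on the Holstein-Friesian slide Limousin carried Cy5 and Holstein-Friesian Cy3, so breed, dye and slide cannot be told apart within a single breed's arrays.

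Brightness differed between the breeds' channels: the median signal above local background per array was 97 to 139 for Hereford and 30.5 to 46.5 for Holstein-Friesian, against 63 to 88 for Limousin in Cy3 and 96.5 to 118 for Limousin in Cy5. Across probes, log2 ratios of Hereford arrays correlated in pairs at 0.061 to 0.53, and those of Holstein-Friesian arrays at 0.40 to 0.60. All 5 matched skeletal muscle markers were well above background in all 16 readings. Of 7 matched heart markers, MYL4 and TNNI3 were so in all 16, TNNT2 in 15, MYBPC3 in 8, and NPPA and NPPB in none. Of 17061 probes tested with limma at a Benjamini-Hochberg adjusted p under 0.05, 7.14% were called for Hereford and 6.45% for Holstein-Friesian against Limousin. The corresponding shares were 0.598% for the marbled breeds together and 2.71% for Hereford minus Holstein-Friesian. In whole muscle, more RNA per cell and more cells of a type cannot be told apart, for any gene below.

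After loess normalization RRAD was higher in Holstein-Friesian than in Limousin muscle on every array, and its Hereford ratios lay on both sides of 0. The log2 ratio of Hereford over Limousin was -0.29, 0.59, -0.65 and -0.12 in replicates 1 to 4, a mean of -0.12 ± 0.52 (SD, n = 4). Replicate 2 was above 0 and the other 3 below. The log2 ratio of Holstein-Friesian over Limousin was 2.92, 2.11, 1.39 and 1.75, a mean of 2.04 ± 0.66 (SD, n = 4). That is a 4.12-fold higher level, the rank 14 rise among the 6693 named genes, and all 4 ratios exceeded every Hereford ratio.

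With the breeds set against each other through the shared Limousin bull, Hereford minus Holstein-Friesian for RRAD averaged -2.16 ± 0.73 on the log2 scale (SD, n = 4), with a range from -3.21 to -1.53. The mean of both breeds over Limousin was 0.96 ± 0.46 (SD, n = 4 Limousin bulls), from 0.37 to 1.35, and it joins ratios of unlike size. Centring each array on its median in place of loess normalization gave 0.17 for Hereford, so that the sign turned, 1.39 for Holstein-Friesian and -1.22 for the difference.

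**Figure D1:**
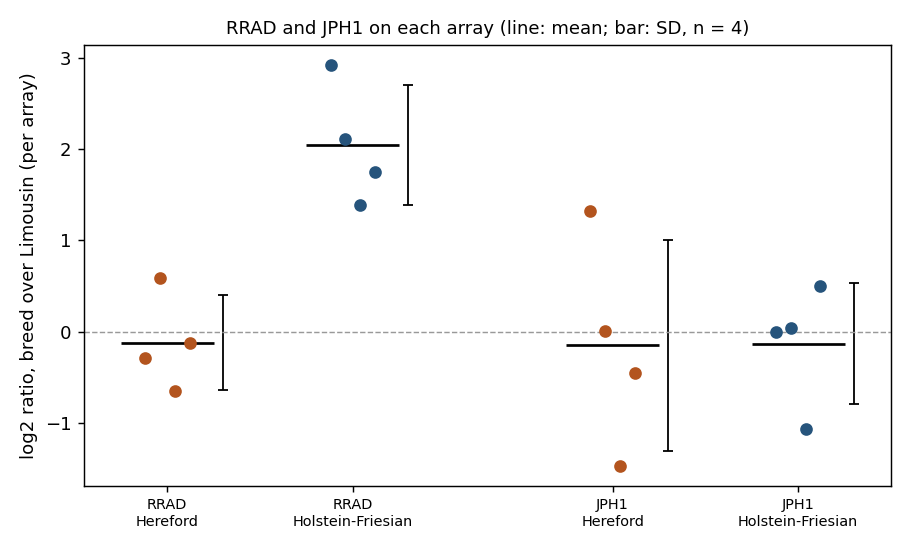
Log2 ratio of each breed over Limousin (y axis) for RRAD and JPH1 on each array, in order of replicate within a group; lines are means and bars SD of 4 arrays. The Holstein-Friesian ratios of RRAD lie between 1.39 and 2.92, above all its Hereford ratios, and those of JPH1 lie on both sides of 0 in both breeds.

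The levels behind these ratios differed little among the Limousin bulls. After normalization of each channel, the log2 intensity of RRAD was 12.35, 13.07, 11.92 and 12.12 in the 4 Hereford bulls, against 12.64, 12.48, 12.57 and 12.24 in the Limousin bulls on the same arrays. These levels overlapped. In the Holstein-Friesian bulls it was 15.56, 14.63, 14.00 and 14.13, against 12.64, 12.52, 12.61 and 12.38 in the same Limousin bulls read in Cy5. The lowest Holstein-Friesian level lay above the highest Limousin and the highest Hereford level. The mean levels were 12.37 ± 0.50 in Hereford and 14.58 ± 0.71 in Holstein-Friesian, against 12.48 ± 0.17 in Limousin in Cy3 and 12.54 ± 0.12 in Limousin in Cy5 (SD, n = 4 each). From high to low, Holstein-Friesian stood first, apart from the other breeds by more than their spread, and Limousin and Hereford followed with a gap smaller than their spread.

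The RRAD values of both breeds, and the gap between the breeds, depended on the normalization. Before dye normalization the background-subtracted intensity was 6585, 12224, 6495 and 7077 in Hereford, against 6957, 6292, 4956 and 4498 in Limousin on the same arrays. In Holstein-Friesian it was 31223, 11931, 6012 and 9442, against 8195, 7853, 9985 and 7573 in Limousin, so that in replicate 3 the Holstein-Friesian spot was the dimmer. The Hereford spot was the brighter in replicates 2, 3 and 4, of which 3 and 4 had ratios below 0 after loess. Hereford and Holstein-Friesian intensities thus overlapped before normalization, where the channels differed in brightness as given above. With breeds compared only within 1 dye, across the slides, the mean log2 difference to Limousin was -0.17 for Hereford and 2.10 for Holstein-Friesian, as large as on the shared arrays.

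**Figure D2:**
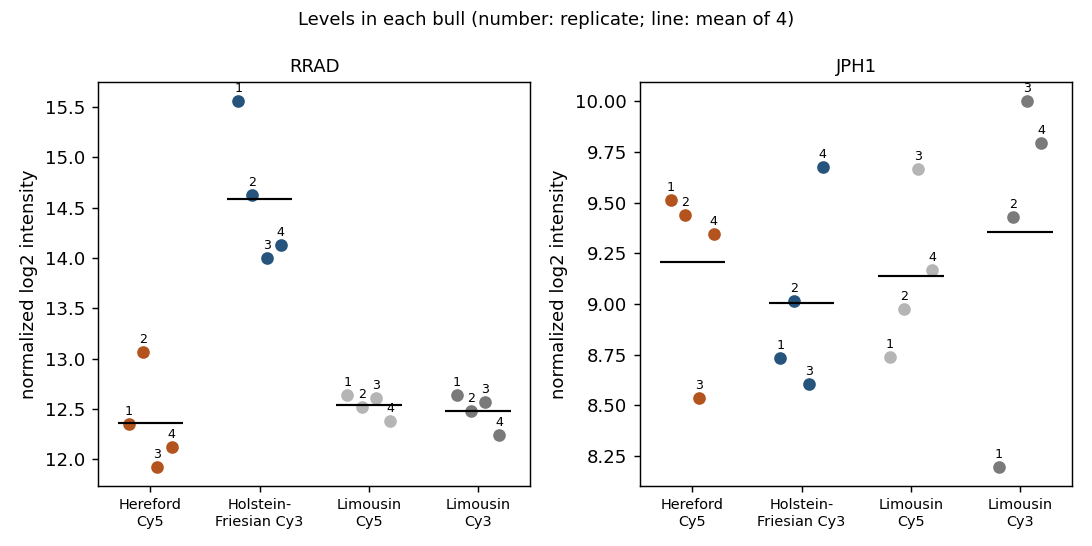
Normalized log2 intensity (y axis) of RRAD and JPH1 in each bull, by breed and dye; numbers are replicates, lines the means of 4, and the Limousin points in Cy5 and Cy3 are the same 4 bulls. RRAD lies at 14.00 or above in all Holstein-Friesian bulls and at 13.07 or below elsewhere, whereas JPH1 in Limousin alone spans 8.19 to 10.002.

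JPH1 did not pass in any of the 4 comparisons, with ratios that differed widely from bull to bull. Its log2 ratio to Limousin was 1.32, 0.01, -1.46 and -0.45 in Hereford, a mean of -0.15 ± 1.15 (SD, n = 4; limma adjusted p = 0.88). In Holstein-Friesian it was -0.003, 0.04, -1.06 and 0.51, a mean of -0.13 ± 0.66 (SD, n = 4; limma adjusted p = 0.89). Each breed had arrays on both sides of 0, and the Hereford mean turned to 0.08 with median centring and 0.07 within 1 dye. The 95% interval from limma ran from -1.08 to 0.79 for Hereford and from -1.07 to 0.81 for Holstein-Friesian over 4 arrays each. The marbled mean was -0.14 ± 0.81 (limma adjusted p = 0.89; interval from -0.95 to 0.68), and Hereford minus Holstein-Friesian was -0.02 ± 0.97 (limma adjusted p = 0.991; interval from -1.34 to 1.31).

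The spread of JPH1 was present among the Limousin bulls themselves. Their normalized log2 intensity was 8.74, 8.98, 9.67 and 9.17 in Cy5 and 8.19, 9.43, 10.002 and 9.79 in Cy3, for bulls 1 to 4. In both dyes bull 1 was lowest and bull 3 highest, with bulls 2 and 4 between them in that order. The 8 readings spanned 1.81 on the log2 scale, and 0.747% of named genes had a wider span. The SD over the means of the 4 bulls was 0.58, larger than in 98.9% of named genes, and the SD of the Hereford ratios was larger than in 99.4%.

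The JPH1 levels of the marbled breeds lay within the Limousin span, at 9.51, 9.44, 8.54 and 9.35 in Hereford and 8.73, 9.01, 8.61 and 9.67 in Holstein-Friesian. Replicate 1, whose Limousin bull was lowest, gave the highest Hereford ratio. Replicate 3, whose Limousin bull was highest, gave the lowest ratio in both breeds.

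RRAD in the same Limousin bulls spanned 0.40, and 63.7% of named genes had a wider span. Each Limousin bull read in Cy5 minus the same bull in Cy3 gave 0.0002, 0.03, 0.04 and 0.14 for RRAD, a mean of 0.05 ± 0.06 (SD, n = 4). For JPH1 it gave 0.54, -0.45, -0.34 and -0.63, a mean of -0.22 ± 0.52 (SD, n = 4; limma adjusted p = 0.532). Both probes had 2 spots per array and were well above background in all 16 readings. The largest gap between the 2 spots of a probe in a log2 ratio was 0.080 for RRAD and 0.11 for JPH1, smaller than any difference between JPH1 readings of 1 bull.

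**Figure D3:**
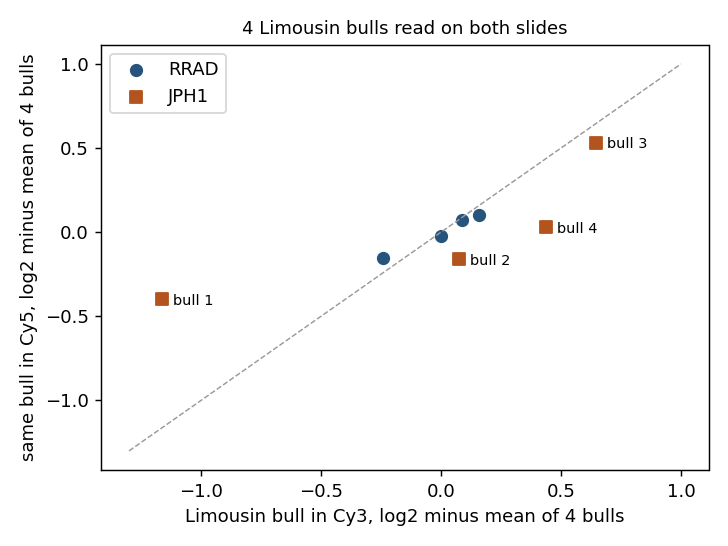
Each Limousin bull's log2 level in Cy5 on 1 slide (y axis) against the same bull's level in Cy3 on the other (x axis), each as the difference to the mean of the 4 bulls; the dashed line marks equal values. RRAD points lie close together near 0, and JPH1 points keep the order of bulls 1, 2, 4 and 3 on both axes.

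The named genes whose ratios over the 8 arrays lay nearest to those of RRAD, by root-mean-square difference of the log2 ratios, were LMOD2, PTI and TRIB1. LMOD2, leiomodin 2, promotes the growth of actin filaments in muscle, and it lay at a distance of 0.63 and averaged -0.16 in the Hereford and 1.33 in the Holstein-Friesian arrays. PTI, pancreatic trypsin inhibitor, lay at 0.64 with means of 0.25 in Hereford and 1.83 in Holstein-Friesian. TRIB1, a tribbles pseudokinase, lay at 0.66 with means of 0.64 in Hereford and 1.92 in Holstein-Friesian.

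A further 70 genes of calcium handling were listed by role, of which 40 matched a probe and 35 had a kept one. CACNB2, FKBP1B, ATP2A3, SLC8A1 and TRPC1 were above background in too few readings. Against Limousin, 3 of the 35 rose and 0 fell in Hereford (8.57%, beside 7.14% of all probes, of which 3.39% higher and 3.75% lower). In Holstein-Friesian 2 rose and 6 fell (22.9%, beside 6.45% of all probes, 3% higher and 3.45% lower). In the marbled breeds together 1 rose and 1 fell (5.71%, beside 0.598%, 0.322% higher and 0.275% lower), and Hereford was higher than Holstein-Friesian for 5 and lower for 0 (14.3%, beside 2.71%, 1.56% higher and 1.15% lower). The median log2 ratio of the 35 was 0.11 in Hereford and -0.004 in Holstein-Friesian, beside 0.008 in Hereford and -0.015 in Holstein-Friesian over all probes.

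These counts moved with single replicates and with the scaling. Without replicate 2 or replicate 4, limma called 0 of the 35 in Hereford (7 and 10 at an unadjusted p under 0.05). Of all probes, 0.264% and 0.176% were called there. In Holstein-Friesian limma called 0 without replicate 2 (12 unadjusted), 1 without replicate 3, 2 without replicate 4 and 5 without replicate 1. The shares of all probes called were 0.457%, 1.61%, 0.744% and 4.75% in that order. The marbled count was 0 without any 1 Limousin bull (6 to 12 unadjusted), beside 0 to 0.00586% of all probes. The breed difference had 4 calls without replicate 1 and 0 without any other (8 to 10 unadjusted). Of all probes, 2.68% were called without replicate 1 and 0 to 0.141% without any other. The Holstein-Friesian count was 5 within 1 dye (beside 5.96% of all probes) and 18 with median centring (beside 39.1%). Median centring moved the median of all probes to -0.20 in Holstein-Friesian and 0.10 in Hereford.

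**Figure D4:**
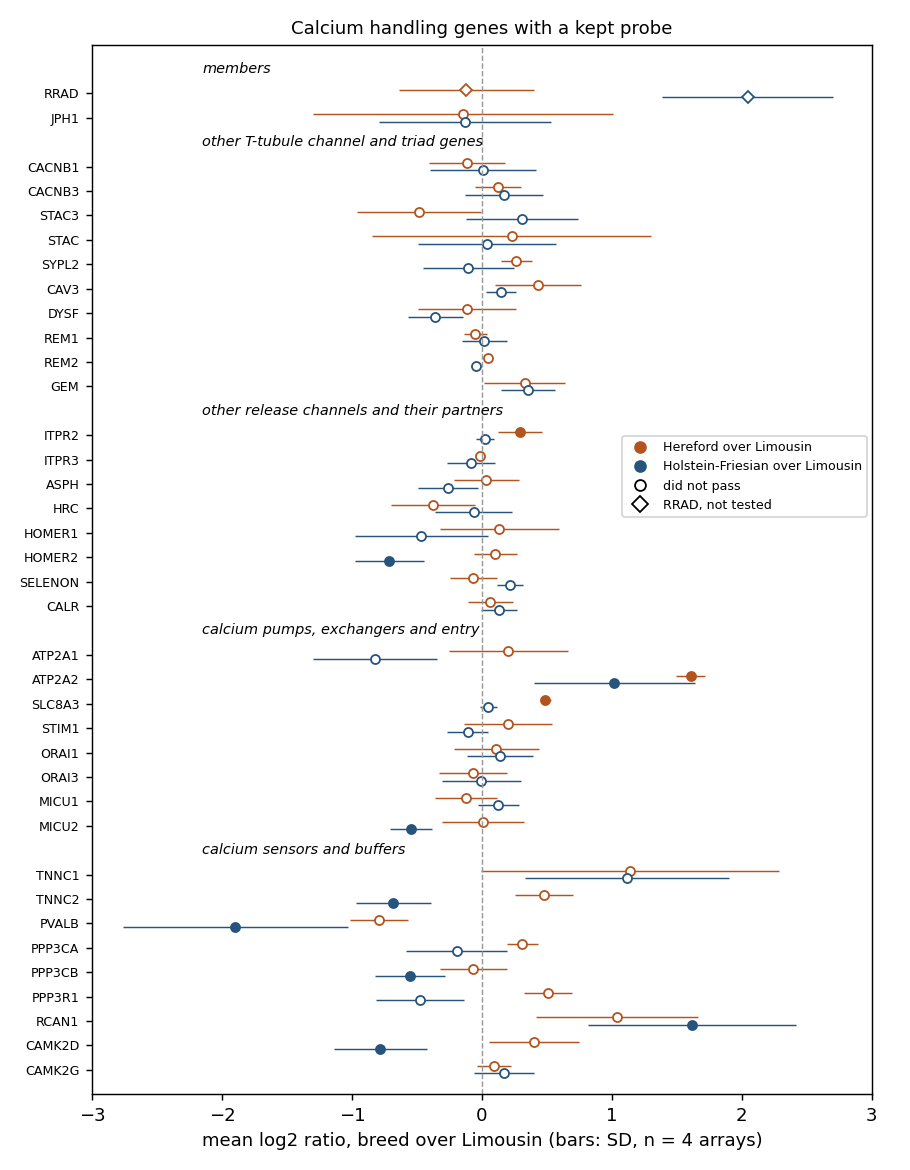
Mean log2 ratio of Hereford and Holstein-Friesian over Limousin (x axis) for RRAD, JPH1 and the 35 further calcium handling genes, grouped by role; bars are SD of 4 arrays, filled points passed limma at an adjusted p under 0.05 and RRAD was not tested. Filled points stand among release partners, pumps and sensors, and 0 of the 10 T-tubule and triad genes has one. Over all probes, 7.14% were called in Hereford and 6.45% in Holstein-Friesian.

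The T-tubule channel and triad genes gave 0 limma calls among 10 kept genes in each of the 4 comparisons (1 to 3 at an unadjusted p under 0.05). Of all probes, 7.14% were called in Hereford, 6.45% in Holstein-Friesian, 0.598% in the marbled breeds and 2.71% in the difference. Among 10 genes, 0 calls lies near these shares. In Holstein-Friesian 3 fell with median centring, beside 39.1% of all probes called. There 1 fell with processed signals (12.6% of all probes called) or deposited ratios (12.5%), and 1 rose within 1 dye (5.96%). With median centring 3 differences passed, beside 36.5% of all probes. The log2 means of the 10 genes ran from -0.48 to 0.43 in Hereford and from -0.36 to 0.35 in Holstein-Friesian. RRAD's relatives of the RGK family were among them. GEM averaged 0.33 ± 0.31 in Hereford (SD, n = 4; limma adjusted p = 0.147) and 0.35 ± 0.21 in Holstein-Friesian (SD, n = 4; limma adjusted p = 0.131), above 0 on 4 of 4 Holstein-Friesian arrays, and it passed there within 1 dye (0.46, adjusted p = 0.0362). REM1 averaged -0.05 in Hereford and 0.02 in Holstein-Friesian, and both signs turned with median centring (0.16 in Hereford and -0.34 in Holstein-Friesian). REM2 was not well above background in any Holstein-Friesian reading and averaged 0.04 in Hereford and -0.04 in Holstein-Friesian, with both signs turned by median centring, and processed signals gave -0.80 in Holstein-Friesian (limma adjusted p = 0.0262).

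The channel beta subunits, to which RGK proteins bind, did not pass with loess normalization. CACNB1, the skeletal muscle form, averaged -0.11 in Hereford (limma adjusted p = 0.739) and 0.01 in Holstein-Friesian (limma adjusted p = 0.982), and both signs turned with median centring, which gave -0.61 in Holstein-Friesian (limma adjusted p = 0.0392). CACNB3 averaged 0.12 in Hereford (limma adjusted p = 0.592) and 0.17 in Holstein-Friesian (limma adjusted p = 0.429), where median centring gave -0.27.

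Of the 8 kept release channels and partners, HOMER2 fell in Holstein-Friesian and ITPR2 rose in Hereford. HOMER2, a scaffold that binds calcium channels and receptors, stood at 0.34, 0.01, -0.02 and 0.08 in the Hereford arrays on the log2 scale (limma adjusted p = 0.628). In Holstein-Friesian it stood at -0.42, -0.58, -0.83 and -1.02, a mean of -0.71 ± 0.27 (SD, n = 4; limma adjusted p = 0.0114), and all 4 lay below every Hereford ratio. Hereford minus Holstein-Friesian was 0.82 (limma adjusted p = 0.0363), and 0.86 within 1 dye (limma adjusted p = 0.0472). The Holstein-Friesian and the difference calls were lost without replicate 2, 3 or 4. ITPR2, an inositol trisphosphate receptor, averaged 0.29 ± 0.17 in Hereford (SD, n = 4; limma adjusted p = 0.0493). With the Limousin bull as a block its adjusted p was 0.0544, within 1 dye the mean was 0.16 (limma adjusted p = 0.345), and the call was lost without any 1 replicate. It was well above background in 4 of 4 Hereford and 1 of 4 Holstein-Friesian readings, against 7 of 8 Limousin readings.

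Among the 8 kept pumps, exchangers and entry genes, 1 pump rose in both marbled breeds. ATP2A2, the SERCA pump of slow fibres and heart, had log2 ratios of 1.55, 1.76, 1.60 and 1.51 in Hereford, a mean of 1.61 ± 0.11 (SD, n = 4; limma adjusted p = 0.00816), a 3.04-fold rise. In Holstein-Friesian they were 1.89, 0.49, 1.01 and 0.69, a mean of 1.02 ± 0.62 (SD, n = 4; limma adjusted p = 0.0259), a 2.03-fold rise. All 8 arrays lay above 0. The marbled mean was 1.31 ± 0.29 (SD, n = 4 Limousin bulls; limma adjusted p = 0.0458), and Hereford minus Holstein-Friesian, 0.59, did not pass (limma adjusted p = 0.274).

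A second ATP2A2 probe gave 1.06 for Hereford (limma adjusted p = 0.0103) and 1.16 for Holstein-Friesian (limma adjusted p = 0.00759). The Limousin bulls read 0.47 higher in Cy5 than in Cy3 for ATP2A2 (limma adjusted p = 0.0378), and within 1 dye the means were 1.13 for Hereford (limma adjusted p = 0.0387) and 1.49 for Holstein-Friesian (limma adjusted p = 0.0126). The Hereford call was lost without replicate 2 or 4 (adjusted p = 0.0615 and 0.0646), and the marbled call without any 1 Limousin bull (adjusted p from 0.0618 to 0.189). The Holstein-Friesian call was lost with median centring (0.42, adjusted p = 0.249), on its own arrays alone (adjusted p = 0.0809) and without replicate 2, 3 or 4 (adjusted p = 0.0721, 0.116 and 0.103).

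ATP2A1, the SERCA pump of fast fibres, did not pass in either breed as first fitted. It averaged 0.20 ± 0.46 in Hereford (SD, n = 4; limma adjusted p = 0.623), on both sides of 0, and the sign turned from the scanner's processed signals (-0.05). In Holstein-Friesian it averaged -0.82 ± 0.48 (SD, n = 4; limma adjusted p = 0.0558), below 0 on 4 of 4 arrays, and passed from the processed signals (limma adjusted p = 0.0442). ATP2A1 passed there too with deposited ratios (limma adjusted p = 0.0445) and over probes above background in all 16 readings (0.0397). Median centring gave -1.56 (limma adjusted p = 0.00716), beside 39.1% of all probes called. Hereford minus Holstein-Friesian for ATP2A1 was 1.03 (limma adjusted p = 0.1001, and 0.0357 with the Limousin bull as a block). With median centring that difference was 2.40 (limma adjusted p = 0.0112), beside 36.5% of all probes called. SLC8A3, a sodium-calcium exchanger, had ratios of 0.54, 0.51, 0.45 and 0.46 in Hereford, a mean of 0.49 ± 0.043 (SD, n = 4; limma adjusted p = 0.00655), and averaged 0.05 in Holstein-Friesian. The difference of 0.44 passed (limma adjusted p = 0.0312), but not within 1 dye (0.32, adjusted p = 0.140), and a second SLC8A3 probe gave 0.11 for Hereford (limma adjusted p = 0.245). The SLC8A3 difference was lost without any 1 replicate, and its Hereford call without replicate 2 or 4. The marbled mean of 0.27 passed with the block (limma adjusted p = 0.0713 without, and 0.0171 with the block). MICU2, a regulator of mitochondrial calcium uptake, averaged 0.01 in Hereford and -0.54 ± 0.16 in Holstein-Friesian (SD, n = 4; limma adjusted p = 0.0363). Its Hereford ratio was -0.47 in replicate 1 and 0.15 to 0.19 in the others. The MICU2 difference of 0.55 passed with the block (limma adjusted p = 0.114 without, and 0.0373 with the block). The Holstein-Friesian call was lost within 1 dye (-0.38, adjusted p = 0.0973) and without replicate 2, 3 or 4.

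Of the 9 kept sensors and buffers, limma called 0 in Hereford (7 at an unadjusted p under 0.05), where the median log2 ratio was 0.40. Within 1 dye, 0 of the 9, PVALB and RCAN1 among them, had an unadjusted limma p under 0.05 in Hereford. In Holstein-Friesian 1 rose and 4 fell (55.6%, beside 6.45% of all probes), with a median of -0.47. The count was 2 within 1 dye (beside 5.96%) and 0 to 2 with 1 replicate left out (beside 0.457% to 4.75%). PVALB, parvalbumin, a calcium buffer of fast fibres, had ratios of -0.74, -0.98, -0.50 and -0.94 in Hereford, a mean of -0.79 ± 0.22 (SD, n = 4; limma adjusted p = 0.126). In Holstein-Friesian they were -2.08, -1.68, -2.95 and -0.87, a mean of -1.90 ± 0.87 (SD, n = 4; limma adjusted p = 0.0111), 3.72-fold lower. All 8 arrays lay below 0, and the marbled mean of -1.34 ± 0.34 passed (limma adjusted p = 0.0468). The Holstein-Friesian call was lost without replicate 2 (adjusted p = 0.0728) and the marbled call without any 1 Limousin bull. The difference between the breeds did not pass (limma adjusted p = 0.164). For PVALB the Limousin bulls' Cy5 minus Cy3 was -0.36 (limma adjusted p = 0.0367), and within 1 dye the Holstein-Friesian mean was -2.25 (limma adjusted p = 0.00639).

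TNNC2, the fast troponin C, averaged 0.48 ± 0.22 in Hereford (SD, n = 4; limma adjusted p = 0.052) and -0.68 ± 0.29 in Holstein-Friesian (SD, n = 4; limma adjusted p = 0.0187). The difference of 1.16 passed (limma adjusted p = 0.0231), but within 1 dye it was 0.02 (limma adjusted p = 0.951) and the Holstein-Friesian mean was -0.11 (limma adjusted p = 0.479). Both calls were lost without replicate 2, 3 or 4. The Limousin bulls read 0.57 higher in Cy5 than in Cy3 for TNNC2 (limma adjusted p = 0.0378). TNNC1, the slow and cardiac troponin C, averaged 1.14 ± 1.15 in Hereford (limma adjusted p = 0.149) and 1.12 ± 0.78 in Holstein-Friesian (limma adjusted p = 0.163; SD, n = 4 each). It was picked out after its values were seen.

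Among calcium-dependent signalling genes, RCAN1 rose and CAMK2D fell in Holstein-Friesian. RCAN1, a regulator of calcineurin, averaged 1.04 ± 0.62 in Hereford (SD, n = 4; limma adjusted p = 0.0862). In Holstein-Friesian it had ratios of 2.47, 1.24, 0.69 and 2.08, a mean of 1.62 ± 0.80 (SD, n = 4; limma adjusted p = 0.0258). A second RCAN1 probe gave 0.94 for Holstein-Friesian (limma adjusted p = 0.0965), and the call was lost without any 1 replicate (adjusted p from 0.0519 to 0.130). The marbled mean of 1.33 passed with the block (limma adjusted p = 0.0564 without, and 0.0314 with the block). The Limousin bulls read 0.34 higher in Cy5 than in Cy3 for RCAN1 (limma adjusted p = 0.0378), and within 1 dye the Holstein-Friesian mean was 1.95 (limma adjusted p = 0.0163). CAMK2D, a calmodulin-dependent kinase subunit, averaged 0.40 ± 0.34 in Hereford (SD, n = 4; limma adjusted p = 0.166) and -0.78 ± 0.36 in Holstein-Friesian (SD, n = 4; limma adjusted p = 0.0295). The CAMK2D difference of 1.19 passed (limma adjusted p = 0.0401), but not within 1 dye (0.73, adjusted p = 0.140) or without any 1 replicate, and the Holstein-Friesian call was lost without replicate 1, 2 or 3. The calcineurin subunits PPP3CB, which fell by 0.55 in Holstein-Friesian (limma adjusted p = 0.0386), and PPP3R1, whose breed difference was 0.98 (limma adjusted p = 0.0357), were named after their values were seen. Neither passed within 1 dye (adjusted p = 0.0577 for PPP3CB and 0.342 for PPP3R1), and both calls were lost without any 1 replicate.

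Of 5 kept slow fibre markers, 3 rose in Hereford (beside 3.39% of all probes) and limma called 0 in Holstein-Friesian (4 at an unadjusted p under 0.05). MYH7, the slow myosin heavy chain, averaged 1.18 ± 0.40 in Hereford (SD, n = 4; limma adjusted p = 0.047, and 0.0714 with the Limousin bull as a block) and 1.06 ± 0.83 in Holstein-Friesian (limma adjusted p = 0.0681). The slow myosin light chains MYL2 and MYL3 rose by 1.37 (limma adjusted p = 0.0469, and 0.0569 with the block) and 1.98 (limma adjusted p = 0.00816) in Hereford. Within 1 dye MYH7 and MYL2 passed as higher in Holstein-Friesian (limma adjusted p = 0.0029 and 0.0196), and the Hereford MYL2 call was lost (adjusted p = 0.0537). MYH7 in Holstein-Friesian also passed with processed signals (limma adjusted p = 0.0353). The Hereford calls of MYH7 and MYL2 were lost with processed signals and with median centring. The counts of 3 and 0 thus moved with the processing. The log2 of the summed intensities of the slow markers was 18.35 to 18.85 in Hereford and 18.21 to 19.38 in Holstein-Friesian. In Limousin it was 17.18 to 18.02, with no overlap. For the 4 kept fast markers it was 18.94 to 19.23 in Hereford and 18.92 to 19.17 in Holstein-Friesian, against 18.61 to 19.14 in Limousin. These 4 had 0 limma calls (1 or 2 unadjusted). Bright probes weigh most in such sums. The slow marker MYOZ2 averaged 0.03 in Holstein-Friesian, below 0 on 3 of 4 arrays, where the median of the slow list was 0.87. The part of fibre type in the ATP2A2, PVALB and troponin C values was not tested.

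Immediate early genes are those whose transcription starts soon after a stimulus. Of 10 kept ones, 5 rose in Hereford (beside 3.39% of all probes), where RRAD averaged -0.12, and 6 rose in Holstein-Friesian (beside 3% of all probes), where RRAD averaged 2.04. The others did not pass, and the median log2 ratio was 0.50 for Hereford and 1.79 for Holstein-Friesian. MYC averaged 1.28 in Hereford (limma adjusted p = 0.0348, and 0.0504 with the block) and 2.78 in Holstein-Friesian (limma adjusted p = 0.00403). KLF4 averaged 0.99 in Hereford and 2.31 in Holstein-Friesian, JUN 1.22 in Hereford and 1.89 in Holstein-Friesian, and ZFP36 0.76 in Hereford and 1.69 in Holstein-Friesian, all called in both breeds. With median centring the Hereford calls of MYC, KLF4 and ZFP36 were lost (limma adjusted p = 0.0522, 0.069 and 0.0558), and that of KLF4 also within 1 dye (0.0609). On the Hereford arrays alone, where 0.158% of all probes were called, all 4 Hereford calls were lost. The limma adjusted p there was 0.0976 for MYC, 0.0753 for KLF4, 0.0541 for JUN and 0.0699 for ZFP36. Of the 4, the ZFP36 breed difference passed (-0.93, limma adjusted p = 0.0357), but not with median centring (-0.16, adjusted p = 0.685). With the block those of MYC (-1.50, adjusted p = 0.0433) and KLF4 (-1.32, adjusted p = 0.0288) passed too, and KLF4 passed within 1 dye (-1.66, adjusted p = 0.0395). The part of these genes in the RRAD values was not tested.

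Of 6 kept smooth muscle markers 1 rose in Hereford, CNN1 (1.09, limma adjusted p = 0.0254), beside 3.39% of all probes. The Hereford log2 means of the list ran from -0.30 to 1.09, with a median of 0.05. The log2 of the summed intensities of the list was 12.34 to 12.85 in Hereford and 12.46 to 12.74 in Holstein-Friesian, against 12.02 to 12.63 in Limousin. Of 6 kept fibroblast markers 1 fell in Holstein-Friesian, COL3A1 (-2.53, limma adjusted p = 0.0125), beside 3.45% of all probes. The Holstein-Friesian means of that list ran from -2.53 to 0.27, with a median of -0.90. The fibroblast sum was 14.90 to 15.69 in Hereford and 13.68 to 14.81 in Holstein-Friesian, against 14.72 to 15.67 in Limousin. Of 5 kept skeletal muscle markers 1 fell in Holstein-Friesian, MB, myoglobin (-1.02, limma adjusted p = 0.0167). It did not pass within 1 dye (-0.56, adjusted p = 0.116). The Holstein-Friesian means of the skeletal list ran from -1.02 to 0.38, with a median of -0.21. Endothelial, adipocyte, macrophage, nerve and heart markers had 0 limma calls in any comparison as first fitted (0 to 4 of a list at an unadjusted p under 0.05). Alternatives gave calls. In Holstein-Friesian CD14, a macrophage marker, and PMP22, a nerve marker, passed as higher with processed signals (limma adjusted p = 0.0179 and 0.0392, from 0.0514 and 0.0642). MYL4, TNNT2, MYBPC3 and PLIN1 passed there as lower, beside 12.6% of all probes called. With median centring LEP and GFAP passed too (39.1%). The macrophage sum was 8.57 to 8.86 in Hereford and 8.82 to 9.93 in Holstein-Friesian, against 8.48 to 9.36 in Limousin.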

How the data were processed

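Per the file headers, spot values were read by Agilent Feature Extraction 10.7.3.1, which the submitters' processing notes name too. Total RNA was extracted with Trizol, per the labels' protocols. Spot and local background brightness stood as median intensity in each channel, per the file headers, and flags for outliers and for signal well above background were used as deposited. Values in the deposited table were log10 of Cy5 over Cy3 and matched the scanner's log ratio in 44407 spots on every array. No value column was left unmapped.

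Fits used limma 3.58.1 and statmod 1.5.0 under R 4.3.3. Files were read with jsonlite 2.0.0 and the data.table package in version 1.17.8, and matplotlib 3.10.9 drew the plots. The plan named mean signals, and median signals were used because the scanner files hold those. Background was corrected with normexp (offset 50) and ratios were normalized by loess within each array (span 0.3, controls without weight), then turned to breed over Limousin on the log2 scale. Control spots and 6 to 29 outlier spots per array were left out and spots of a probe averaged. A probe was kept with at least 4 of 16 readings above background, a reading counting where a share of 0.5 or more of its spots was; 17061 of 21475 probes passed. Levels per channel were normalized with loess and Aquantile.

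RefSeq transcripts named 8297 probes through a table of assembly ARS-UCD2.0; the array's own build is HGSC Btau_3.1 per the file headers, so no coordinates or sequences are given. Breed means were fitted over 8 arrays with lmFit and eBayes; the marbled comparison used 4 values, the mean of both breeds for each Limousin bull. Tests were two-sided, with Benjamini-Hochberg adjustment over all kept probes and a threshold of 0.05. They were checked on simulated data with independent arrays, which does not cover the sharing of Limousin bulls between arrays. The replicate number marks the Limousin bull, per the labels, so it pairs the arrays; deviations of same-numbered arrays correlated at 0.41, 0.27, 0.50 and 0.099. Arrays number 4 per breed, which limits precision.

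The genes and lists were chosen with earlier results of these data known, and neither the members nor the lists are independent of them. Named were all members, the genes of each further list that passed in any comparison (up to 4 by adjusted p), ATP2A1, ATP2A2, and 3 neighbours of RRAD; exceptions are stated. Alternatives were processed signals, the deposited ratios, median centring, stricter and no filters, a replicate block, a breed's own arrays alone, comparison within 1 dye, a second probe, and each replicate left out.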

Additional observations from a re-analysis of the deposited data

Results flagged for a closer look

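On 2 flagged gene and breed combinations 1 array stood far from the other 3 by Dixon's test for 4 values, which chance gives in about 1 of 20 groups. The 2 are not a full list of such arrays. REM2, a relative of RRAD, had a log2 ratio of 0.016 in Holstein-Friesian replicate 2, against -0.068 to -0.055 in the other replicates, at a signal not well above background. COL3A1 had -4.23 in Holstein-Friesian replicate 3, against -2.14 to -1.75 in the others. MICU2, which was not flagged, had -0.47 in Hereford replicate 1, against 0.15 to 0.19 in the others.

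The test of the difference between the breeds passed for 8 of the genes named. Hereford minus Holstein-Friesian was 0.82 for HOMER2, 0.44 for SLC8A3, 1.16 for TNNC2, 1.19 for CAMK2D, 0.98 for PPP3R1 and 1.43 for MB on the log2 scale, and -0.73 for LMOD1 and -0.93 for ZFP36. A dye effect adds up in this difference. Within 1 dye it did not pass for SLC8A3, TNNC2, CAMK2D or PPP3R1, as given above. Nor did it pass there for MB (0.50, limma adjusted p = 0.323) or LMOD1 (-0.88, adjusted p = 0.051). With median centring it was lost for LMOD1 (-0.07, limma adjusted p = 0.803) and ZFP36 (-0.16, adjusted p = 0.685). With processed signals it was lost for HOMER2, SLC8A3 and LMOD1.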

How the results depend on the processing

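All alternatives were planned. Processed signals and deposited ratios replace background correction and normalization together, and comparison within 1 dye adds scaling between arrays. The cause of a change was not tested. For RRAD the Holstein-Friesian value stayed positive under every alternative run, and the breed difference stayed negative, at -1.22 with median centring. With 1 replicate left out RRAD ranged from -0.35 to 0.06 in Hereford, 1.75 to 2.26 in Holstein-Friesian, 0.83 to 1.16 in the marbled breeds and -2.37 to -1.81 in the difference. JPH1 ranged from -0.63 to 0.29 in Hereford, -0.34 to 0.18 in Holstein-Friesian, -0.40 to 0.24 in the marbled breeds and -0.46 to 0.30 in the difference, so its sign turned. JPH1 also turned in Hereford with median centring (0.076) and within 1 dye (0.072), and in the difference with processed signals (0.041), deposited ratios (0.041), median centring (0.70) and within 1 dye (0.42).

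Of genes that did not pass or near 0, ATP2A1 in Hereford turned with processed signals and deposited ratios (-0.052 each), within 1 dye (-0.086) and with 1 replicate left out (from -0.0045 without replicate 4 to 0.34). The ATP2A2 difference turned within 1 dye (-0.36) and on the second probe (-0.10). CACNB1 turned in Hereford with median centring (0.12), and in Holstein-Friesian with processed signals and deposited ratios (-0.018 each), median centring (-0.61), within 1 dye (-0.058) and without replicate 3 (-0.012) or 4 (-0.18; the range with 1 left out was -0.18 to 0.12). CACNB3 turned in Holstein-Friesian with median centring (-0.27). REM1 turned with median centring in Hereford (0.16) and Holstein-Friesian (-0.34), and in Holstein-Friesian within 1 dye (-0.019) and with 1 replicate left out (from -0.066 without replicate 1 to 0.059). REM2 turned in Hereford with processed signals and deposited ratios (-0.051 each), median centring (-0.10) and within 1 dye (-0.073), and in Holstein-Friesian with median centring (0.31) and within 1 dye (0.076).

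The count of probes called in Hereford, 1218, was 315 with median centring, 27 on its own arrays alone, 683 within 1 dye and 30 to 1055 with 1 replicate left out. In Holstein-Friesian, 1100 became 2157 with processed signals, 2129 with deposited ratios, 6678 with median centring and 78 to 810 with 1 replicate left out. For the marbled breeds, 102 became 444 with processed signals, 438 with deposited ratios, 950 with median centring, 371 over probes above background in all readings, 42 without a filter, and 0 to 1 with 1 replicate left out (2339 to 3340 at an unadjusted p under 0.05 in limma). For the difference, 463 became 974 with processed signals, 979 with deposited ratios, 6219 with median centring, 231 within 1 dye and 0 to 457 with 1 replicate left out (2217 to 3785 unadjusted). With median centring, the share of calls that were higher was 87% in Hereford (47.5% with loess), 29% in Holstein-Friesian (46.5%), 23.1% in the marbled breeds (53.9%) and 78.1% in the difference (57.5%), where the median of all probes moved to 0.36.

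The count of further calcium genes in Hereford, 3, was 1 on its own arrays alone and 0 to 2 with 1 replicate left out. In Holstein-Friesian, 8 became 18 with median centring, beside 39.1% of all probes called. The count there was 4 on its own arrays alone, 5 within 1 dye and 0 to 5 with 1 replicate left out. For the marbled breeds, 2 became 4 with median centring and 0 without a filter (13 unadjusted in limma) or with any 1 bull left out. For the difference, 5 became 20 with median centring, beside 36.5% of all probes called. It was 3 with processed signals or deposited ratios, 1 within 1 dye and 0 to 4 with 1 replicate left out.

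With the Limousin bull as a replicate block, the counts of probes were 1191 in Hereford, 1080 in Holstein-Friesian, 910 in the marbled breeds and 1714 in the difference, and the counts of further calcium genes were 2 in Hereford, 8 in Holstein-Friesian, 4 in the marbled breeds and 7 in the difference. The block ended the Hereford calls of ITPR2, MYH7, MYL2 and MYC and the marbled call of MYH7 (adjusted p = 0.0526). Newly past the threshold were the marbled means of SLC8A3, RCAN1, MYL3 and COL3A1, the LMOD1 mean in Holstein-Friesian, and the differences of ATP2A1, MICU2, MYL3, CNN1, COL3A1, MYC and KLF4. It changed no other call among the listed genes named. Calls of the markers CNN1, COL3A1, MB and LMOD1 were lost without at least 2 of the 4 replicates, each taken in turn. On a breed's own arrays alone, the Hereford calls of ITPR2, SLC8A3, MYH7, MYL2, MYL3 and CNN1 were also lost. So were the Holstein-Friesian calls of PPP3CB, RCAN1 and CAMK2D. With Holstein-Friesian in the dimmer channel, signal over background limits weak probes there, such as those of REM2 and ITPR2.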
